A study of Mus musculus with 4 samples.

Results

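Sites open before differentiation that stayed open afterwards only in the demethylation-defective cells are described here. Peaks of 4 ATAC-seq libraries were merged on chromosomes 1 to 19 wherever they overlapped by at least 1 bp, which gave 98469 regions. A region was chosen by its peak calls when it held a peak of WT D0, HY D0 and HY D8 and none of WT D8. This pattern was found in 6651 regions, called HY-kept sites, which is 6.75% of all regions and 11.7% of the 56625 regions open in both D0 libraries. The mirror pattern, a peak of WT D0, HY D0 and WT D8 and none of HY D8, was found in 1864 regions or 3.29%, called WT-kept sites. The D8 calls chose both groups, so these numbers and all D8 levels of the 2 groups describe the choice and test nothing.

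ATAC-seq marks open chromatin, because the transposase Tn5 inserts adapters where DNA is accessible. In preadipocytes many distal open sites carry motifs of AP-1, TEAD and RUNX factors, and such sites commonly close as PPARG and C/EBP factors open new enhancers. JMJD1A (KDM3A) removes methyl groups from histone H3 lysine 9, a mark of inactive chromatin, and acts in the beiging of white fat.

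The libraries came from im-scWAT cells, stromal vascular cells of subcutaneous white fat of 5-week-old mice, immortalised with a retrovirus carrying the SV40 large T antigen under puromycin selection. WT cells were Jmjd1a +/+ and HY cells Jmjd1a HY/HY, a knock-in on C57BL/6J in which a histidine is replaced by tyrosine and the enzyme's demethylation is lost in all cells of the animal. D0 cells were taken before the differentiation treatment. D8 cells had received indomethacin, dexamethasone, 3-isobutyl-1-methylxanthine, rosiglitazone, insulin and T3 for 2 days, then insulin, T3 and rosiglitazone for 6 days. Each of the 4 groups was 1 library, so genotype cannot be told apart from differences between cell lines, cultures or libraries, and all intervals below cover counting error only.

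At D0 there were 71523 peaks in the WT list and 77994 in the HY list, and at D8 41228 and 48964. The genome-wide rate, the mean number of overlapping tags at any position and a measure of depth, was 0.659 (WT) and 0.708 (HY) at D0 and 0.531 (WT) and 0.494 (HY) at D8. By this rate HY D8 was the shallowest library, and it had more peaks than WT D8. At regions open in all 4 libraries the median number of overlapping tags at the summit, unscaled, was 18 in WT D8 and 20 in HY D8. Whether the rate measures depth alike in all 4 libraries was not tested. A peak overlapped the promoter of 8 of 8 adipocyte markers in both D8 libraries and of 4 of 8 in both D0 libraries. For preadipocyte markers the number was 7 of 8 in WT D0, 5 in HY D0, 3 in WT D8 and 4 in HY D8. Summed over the 8 preadipocyte promoters, the scaled pileup was 270.2 in WT D0, 289.7 in HY D0, 118.7 in WT D8 and 184.2 in HY D8. At Zfp423 the WT D8 peak, of 22 tags against 29 in HY D8, lay in the same merged region but outside the promoter window, so this promoter is no HY-kept site. With all peaks of the merged regions that met a promoter window, an alternative chosen after seeing the data, the D8 sums were 182.7 in WT and 210.5 in HY, with 5 of 8 promoters in each. Summed over the 8 adipocyte promoters it was 657.5 in WT D8 and 734.6 in HY D8. The 3 smooth muscle promoters summed to 43.3 and 46.5 at D8, with 151.8 and 149.8 at D0. No promoter of the 3 blood and macrophage markers that could be matched (Ptprc, Cd68 and Csf1r) had a peak in any library, and the endothelial markers had 3 of 4 in WT D0, 2 in HY D0, 0 in WT D8 and 1 in HY D8. Of the 7 beige or brown markers, 3 (Ucp1, Dio2 and Tmem26) had no promoter peak in any of the 4 libraries. The part of the higher preadipocyte sum of HY D8 in the HY-kept sites was not tested, and a site open in fewer cells cannot be told apart from a site less open in each cell.

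The following 9 HY-kept sites show what these regions look like at the base level. They were taken from the sites with the strongest HY D8 peaks and from the named gene lists, to show the motifs counted below and 1 promoter without any. Each sequence runs 100 bp to both sides of the HY D0 summit on the plus strand of NCBIM37 (mm9), and capitals mark matches to the AP-1, TEAD, RUNX or CTCF letters given further on.
Npas2, intron, 2 AP-1 matches and 1 RUNX match, chr1:39313471-39313671: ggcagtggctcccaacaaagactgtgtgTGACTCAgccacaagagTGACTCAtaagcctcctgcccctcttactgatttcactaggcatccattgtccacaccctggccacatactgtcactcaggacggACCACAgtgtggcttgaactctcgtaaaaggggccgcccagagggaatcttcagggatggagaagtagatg
Rnaseh2b, intron, 1 AP-1 and 1 TEAD match, chr14:62989743-62989943: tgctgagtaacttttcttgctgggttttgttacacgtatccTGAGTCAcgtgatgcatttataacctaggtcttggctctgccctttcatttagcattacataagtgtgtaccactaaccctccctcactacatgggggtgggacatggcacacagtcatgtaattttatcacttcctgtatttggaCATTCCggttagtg
Kcnv2, intergenic, 1 AP-1 match, chr19:27439222-27439422: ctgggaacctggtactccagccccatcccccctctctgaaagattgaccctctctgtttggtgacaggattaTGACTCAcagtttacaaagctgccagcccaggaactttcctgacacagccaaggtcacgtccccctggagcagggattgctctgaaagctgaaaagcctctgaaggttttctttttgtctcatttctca
Smyd3, intron, 1 TEAD match, chr1:181407407-181407607: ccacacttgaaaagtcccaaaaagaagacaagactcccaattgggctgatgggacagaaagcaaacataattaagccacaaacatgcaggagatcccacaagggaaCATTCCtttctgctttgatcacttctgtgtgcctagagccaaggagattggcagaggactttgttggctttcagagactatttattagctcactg
Gdi2, intergenic, 1 CTCF match, chr13:3406002-3406202: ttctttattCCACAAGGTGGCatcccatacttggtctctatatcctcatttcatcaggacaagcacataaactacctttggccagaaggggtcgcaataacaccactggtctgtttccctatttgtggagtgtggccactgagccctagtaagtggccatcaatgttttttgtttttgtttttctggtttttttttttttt
Mkl1, intron, overlapping TEAD and AP-1 matches, chr15:80936473-80936673: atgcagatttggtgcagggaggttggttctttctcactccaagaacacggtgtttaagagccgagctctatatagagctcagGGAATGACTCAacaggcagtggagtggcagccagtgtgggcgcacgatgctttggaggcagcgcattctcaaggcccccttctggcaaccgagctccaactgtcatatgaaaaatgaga
Acta2, intergenic, 1 AP-1 and 1 TEAD match, chr19:34340255-34340455: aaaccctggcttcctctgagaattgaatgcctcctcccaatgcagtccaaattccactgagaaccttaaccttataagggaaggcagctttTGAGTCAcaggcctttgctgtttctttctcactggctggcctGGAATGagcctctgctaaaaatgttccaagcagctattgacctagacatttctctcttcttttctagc
Zfp423, intron, 1 AP-1 match, chr8:90315143-90315343: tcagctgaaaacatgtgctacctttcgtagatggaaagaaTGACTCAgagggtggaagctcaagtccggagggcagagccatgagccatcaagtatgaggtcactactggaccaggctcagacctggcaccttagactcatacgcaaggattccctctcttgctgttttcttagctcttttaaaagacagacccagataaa
Gata2, promoter, no match, chr6:88143440-88143640: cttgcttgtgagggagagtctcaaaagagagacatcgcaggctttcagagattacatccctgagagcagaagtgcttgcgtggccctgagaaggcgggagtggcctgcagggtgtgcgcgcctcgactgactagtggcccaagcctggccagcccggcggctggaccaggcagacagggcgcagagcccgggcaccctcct

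The strongest HY-kept site by -log10 q in HY D8 lay in an intron of Smyd3, which encodes a lysine methyltransferase, 40.6 kb from the nearest transcription start site (TSS). Its summit pileup, the number of overlapping tags at the peak's highest point, was 42 in WT D0, 45 in HY D0 and 20 in HY D8, with no peak in WT D8. At the local background of HY D8, scaled to depth, WT D8 would have called a pileup of 5 there. The background and pileup of WT D8 itself at this site are not known. The intronic site of Npas2, a circadian transcription factor, had pileups of 46, 44 and 18 in the same order. Scaled to depth, both sites were lower in HY D8 than in either D0 library, and this was the usual pattern.

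Several of the strongest sites were instead as high or higher in HY D8 after scaling. The strongest sites were chosen by their HY D8 peak, and of all 6651 HY-kept sites 989 (14.9%) were at or above their HY D0 level. The intronic site of Prdm10, a zinc finger factor, at chr9:31156498-31156725, had pileups of 15 in WT D0, 16 in HY D0 and 19 at HY D8. The site 131 kb upstream of Gdi2, a regulator of Rab GTPases, had 13, 14 and 17. The intronic site of Rnaseh2b, a subunit of RNase H2, had 10, 11 and 16. Scaled to depth, the Rnaseh2b site was higher in HY D8 than in HY D0 by 1.06 on the log2 scale. The site 42.2 kb from Kcnv2, a potassium channel subunit, had 20, 25 and 18, and the site 35.1 kb upstream of the Wnt receptor gene Fzd9 (chr5:135762122-135762409) had 23, 24 and 17. The site 25.6 kb from Hfe2, the gene of hemojuvelin, at chr3:96303392-96303547, had 37, 38 and 34 over a local background of 4.27 tags in HY D8, so that WT D8 would have needed 14 tags. This background was far above the genome-wide rate of 0.494. The sites at Mtus2 (42, 30 and 17), Zfp648 (19, 16 and 16) and Fat3 (10, 15 and 16) complete the strongest 12 with the promoter of B230120H23Rik described below.

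Over all 6651 HY-kept sites the median summit pileup was 16 in WT D0 (quartiles 11 and 24), 19 in HY D0 (13 and 28) and 7 in HY D8 (6 and 9, range 4 to 45). Divided by the genome-wide rate of each library, these medians were 24.3, 26.9 and 14.2 times the rate. Most HY-kept sites were thus weak at D8. Only 1575 of them (23.7%) reached 10 tags in HY D8, 343 (5.16%) reached 15, and 225 (3.38%) had 4 tags. At WT-kept sites the WT D8 median was 9 tags or 17.0 times the rate, and at the 23856 regions open in all 4 libraries the HY D8 median was 20 tags or 40.5 times the rate.

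**Figure D1:**
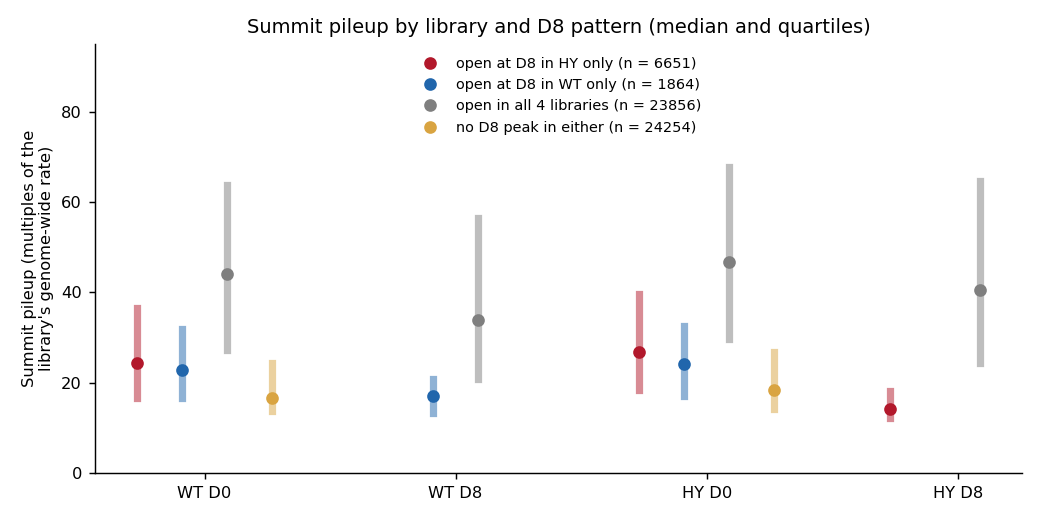
Summit pileup, in multiples of the genome-wide rate of each library, is plotted for the 4 libraries. Points are medians and bars run from the lower to the upper quartile over regions of each D8 pattern, and a pattern has no point in a library where it has no peak. HY-kept sites (red) stand at 24.3 in WT D0 and 26.9 in HY D0 and at 14.2 in HY D8.

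Kept did not mean unchanged. From HY D0 to HY D8 the depth-scaled pileup of the HY-kept sites was lower, with a median log2 ratio of -0.80 (quartiles -1.32 and -0.26). It was at least 2-fold lower at 2579 sites (38.8%), beside 17.2% of all 32265 regions with a peak in HY D0 and HY D8, and at least 2-fold higher at 48 sites. At regions open in all 4 libraries the median log2 ratio of D8 to D0 was -0.08 in HY and -0.16 in WT. WT-kept sites had a median log2 ratio of WT D8 to WT D0 of -0.47, and 416 (22.3%) were at least 2-fold lower. The choice enters these values, since a lower D8 level made a call at D8 less likely.

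Of the D8 libraries WT D8 had the higher genome-wide rate and was taken as the deeper one. With the local background that each site had in HY D8, scaled to the depth of WT D8, the whole number of tags needed to reach the weakest -log10 p called in WT D8, 3.68, had a median of 5. The HY D8 level, scaled in the same way, reached this number at 6402 of the 6651 sites (96.3%) and lay under it at 249, and these are levels on which the sites were chosen. It was at least 2-fold above the number needed at 782 sites (11.8%) and at least 3-fold at 77. With WT D8 set 1 tag under the number needed, the median log2 ratio of WT D8 to WT D0 was -1.50. This is an upper bound only if the local background of WT D8 was that of HY D8, scaled to depth. For WT-kept sites the scaled WT D8 level reached the number needed in HY D8 at 1831 of 1864 (98.2%) and was at least 2-fold above it at 256 (13.7%). With HY D8 set 1 tag under that number, their median log2 ratio of HY D8 to HY D0 was -1.39, with the same limit on the background.

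At the edge of the choice the values differed little. The HY-kept sites with the weakest HY D8 peaks lay near Auh (15 tags in WT D0, 15 in HY D0 and 4 in HY D8), 4933403G14Rik (39, 38 and 4) and at the promoter of Clstn1 (8, 13 and 4), each with a -log10 q of 1.31. Just outside were regions with the weakest WT D8 peaks. The one near Txn2 went from 22 tags at D0 to 6 at D8 in WT and from 31 to 8 in HY. That near Sept8 went from 16 to 5 and from 26 to 7, and that near Edn2 from 22 to 5 and from 32 to 7.

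The nearest WT D8 peak lay at a median of 13.9 kb from a HY-kept site. It was within 1 kb for 560 sites (8.42%) and farther than 10 kb for 3959 (59.5%).

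There were 3.57 HY-kept sites for each WT-kept site. When each list was limited to its 40226 strongest peaks on these chromosomes, so that all 4 had equal length, there were 2844 HY-kept and 1493 WT-kept sites, a ratio of 1.90. With a -log10 q of at least 5 required where a peak had to be present, the numbers were 1978 and 595, a ratio of 3.32. With D8 peaks covered over at least 50% of their length and no merging, they were 10146 and 3406, a ratio of 2.98. HY-kept sites were more numerous under each of the 5 alternatives, and how many there were depended on the rule. Newly opened sites, with a D8 peak and no D0 peak, also favoured HY in these lists, 4898 in HY D8 only against 2174 in WT D8 only, while 5920 were opened in both. The longer HY D8 list moved with these counts, and its part in them beyond the equal-length lists was not tested.

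**Figure D2:**
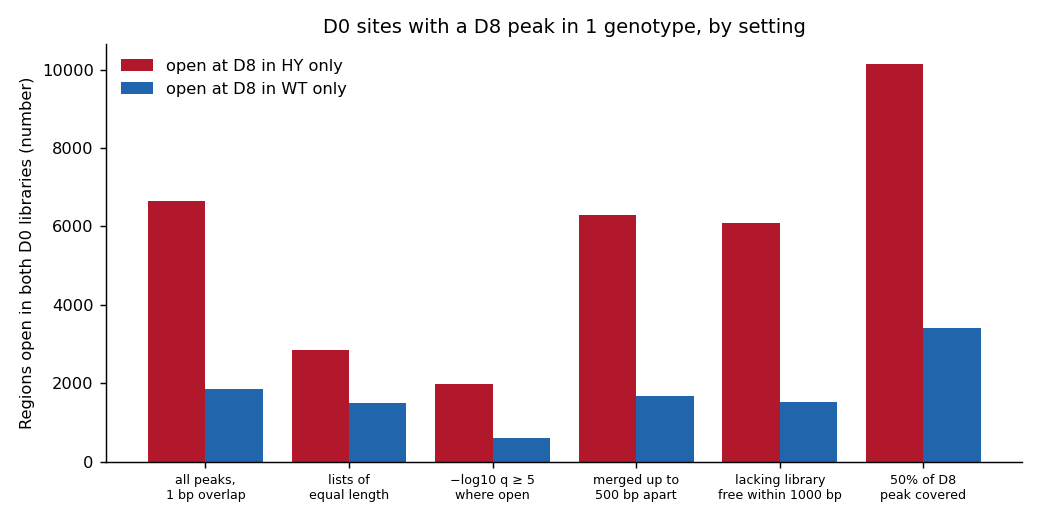
The number of regions open in both D0 libraries with a D8 peak in HY only (red) or WT only (blue) is plotted for the rule used and 5 alternatives. HY exceeds WT in each pair, from 6651 against 1864 with all peaks to 2844 against 1493 with lists of equal length.

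At D0, before differentiation, HY-kept sites had nearly the same signal in both genotypes. The depth-scaled pileup in HY D0 exceeded that in WT D0 by a median of 0.10 on the log2 scale (quartiles -0.17 and 0.40). It was at least 2-fold higher in HY at 165 sites (2.48%), beside 2.23% of all regions open in both D0 libraries, and at least 2-fold lower at 79. The median over all these regions was 0.08, that of WT-kept sites 0.03 and that of regions open in all 4 libraries 0.07. The share of HY-kept sites already higher in HY at D0 was thus near the background share. At D8 the regions open in all 4 libraries were higher in HY by a median of 0.16, and sites newly opened in both by 0.10.

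The level at D0 was related to the later pattern. Regions open in both D0 libraries were ordered by their mean D0 signal and divided into 8 classes of about equal size. HY-kept sites made up 8.74% of the weakest class (95% Wilson interval 8.10 to 9.43), 16.3% of the fifth (15.4 to 17.1) and 3.13% of the strongest (2.75 to 3.56). WT-kept sites made up 2.28%, 4.29% and 0.47% of the same classes. HY-kept sites outnumbered WT-kept sites in every class. The ratio was lowest in the third class, at 2.63, and highest in the strongest, at 6.73, where the numbers were 222 and 33. Most of the strongest class, 94.6%, was open in all 4 libraries, and most of the weakest, 80.0%, had no D8 peak.

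**Figure D3:**
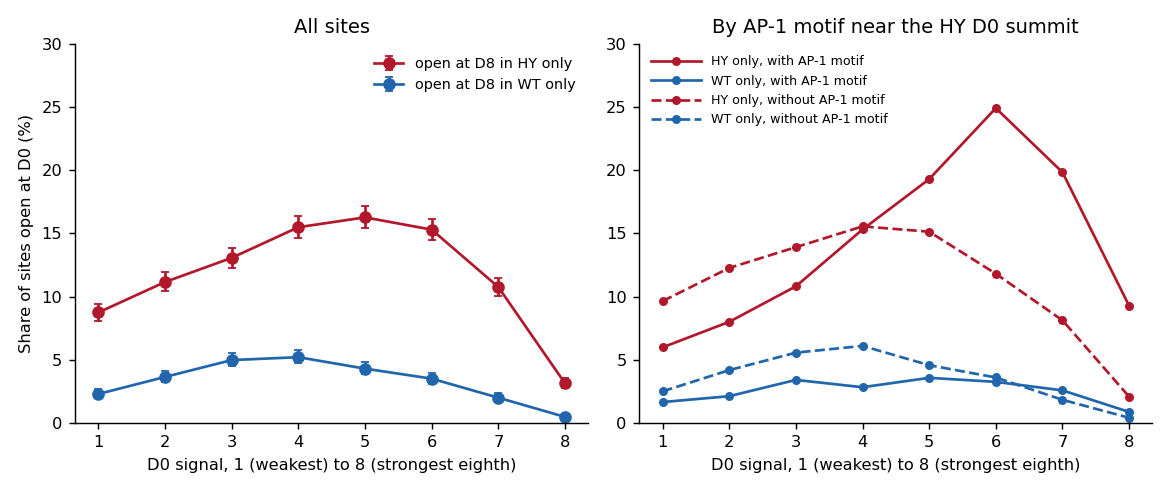
The share of regions open in both D0 libraries (percent) that kept a D8 peak in HY only (red) or WT only (blue) is plotted against 8 classes of D0 signal, with 95% Wilson intervals at left and split by an AP-1 match at right. With an AP-1 match the HY-only share peaks at 24.9% in the sixth class, and without one it is 11.8% there, while in the 4 weakest classes the share is lower with a match than without.

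HY-kept sites were mostly distal. Their summit lay in a promoter, from 1000 bp upstream to 100 bp downstream of a protein-coding TSS, at 556 sites (8.36%, 7.72 to 9.05), in an intron at 2730 (41.0%), between genes at 3118 (46.9%) and in an exon at 247 (3.71%). Promoters held 12.6% of WT-kept sites, a difference of -4.19 percentage points (95% Newcombe interval -5.90 to -2.61), 41.1% of regions open in all 4 libraries and 5.38% of regions that closed in both genotypes. All regions open in both D0 libraries were mostly distal too, with 21.0% in promoters, 35.7% in introns, 39.8% between genes and 3.52% in exons. The median distance of HY-kept sites to a TSS was 18.5 kb, against 12.4 kb for all these regions. It was 10.7 kb for WT-kept sites, 2.20 kb for regions open in all 4 and 22.6 kb for regions closed in both. More than 100 kb from any TSS lay 13.7% of HY-kept and 7.94% of WT-kept sites, a difference of 5.71 points (4.17 to 7.13). The share was 11.5% over all regions open in both D0 libraries and 16.7% in regions closed in both. HY-kept sites were a median of 419 bp wide, near the 436 bp of all regions open in both D0 libraries. The median was 348.5 bp for WT-kept sites, 669 bp for regions open in all 4 and 299 bp for regions closed in both. In position HY-kept sites resembled the sites that closed in both genotypes more than those that stayed open.

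The promoter sites with the strongest HY D8 peaks showed a range of D0 levels. The promoter of B230120H23Rik had pileups of 10 in WT D0, 14 in HY D0 and 20 in HY D8. That of Dpm3, a subunit of dolichol phosphate mannose synthase, had 18, 22 and 20. The promoter of Ddit4l, a relative of the mTOR inhibitor gene Ddit4, had 12, 24 and 16 and was already higher in HY at D0, by 0.90 on the log2 scale after scaling. That of Gm17252 had 22, 38 and 14. That of Cyp27a1, the sterol 27-hydroxylase, had 13, 13 and 17, and that of 3222401L13Rik had 15, 17 and 13. After scaling, 4 of these 6 promoters were highest at HY D8 among the 3 libraries with a peak, all but those of Ddit4l and Gm17252. They were chosen by their HY D8 peak, so this describes the choice. Of all 556 HY-kept promoters, 113 were at or above their HY D0 level after scaling.

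Motifs were searched by their letters on both strands within 100 bp of the HY D0 summit, so that all regions open at D0 were treated alike. The letters were TGANTCA for AP-1, GGAATG for TEAD, TGTGGT for RUNX, TTGCNNAA for C/EBP and a core consensus for CTCF, and a TEAD match may overlap an AP-1 match as in the Mkl1 site shown above. AP-1 letters were found at 2013 HY-kept sites, 30.3% (29.2 to 31.4), and at 19.7% of WT-kept sites, a difference of 10.6 points (8.41 to 12.6). The share was 16.0% in regions open in all 4 libraries, 31.7% in regions closed in both and 24.5% in all regions open in both D0 libraries. TEAD letters followed the same order, with 21.2% of HY-kept and 14.8% of WT-kept sites, a difference of 6.40 points (4.46 to 8.23), and 17.8% of all. RUNX letters were in 20.5% and 16.4%, a difference of 4.10 points (2.11 to 5.99), and 18.2% of all. AP-1 and TEAD letters occurred together at 438 HY-kept sites (6.59%) and 54 WT-kept sites (2.90%), beside 4.71% of all and 6.25% of regions closed in both. Letters mark possible sites only, and binding was not measured.

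Under the 4 alternative rules for the regions in which it was computed, the AP-1 difference between HY-kept and WT-kept sites was between 10.0 points with peaks up to 500 bp apart merged and 13.7 points with the stricter -log10 q. Within 50 bp of the summit it was 7.71 points (5.86 to 9.44). It was not computed under the rule of 50% coverage or around the HY D8 summit. With lists of equal length the shares were 36.6% and 23.8%. Among regions with AP-1 letters there were 5.49 HY-kept for each WT-kept site, among regions without them 3.10, and among regions with AP-1 and TEAD letters 8.11. The ratio was higher with AP-1 letters in 7 of the 8 classes of D0 signal. In the sixth class 24.9% of regions with AP-1 letters and 11.8% of those without were HY-kept. The HY-kept share was higher with AP-1 letters in the 4 classes of strongest D0 signal and lower in the other 4, with 5.98% against 9.64% in the weakest class, 8.00% against 12.3% in the next, then 10.8% against 13.9% and 15.3% against 15.6%.

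HY-kept sites with and without AP-1 letters had the same median pileup in HY D8, 7 tags, beside a median of 5 needed for a call in WT D8, and differed at D0, with medians of 23 and 17 tags in HY D0. The median log2 ratio of HY D8 to HY D0, which carries this D0 difference, was -1.07 with and -0.65 without AP-1 letters. At regions open in all 4 libraries the values were -0.44 and -0.04. Of the 2579 HY-kept sites that were at least 2-fold lower in HY D8 than in HY D0, 42.7% (40.8 to 44.6) held AP-1 letters, and of the 989 that were at or above their HY D0 level, 14.7% (12.6 to 17.0). The second set had the lower D0 signal, with a median HY D0 pileup of 10 against 28. At D0, HY-kept sites with AP-1 letters were higher in HY by a median of 0.18 and those without by 0.07, and regions closed in both gave 0.16 and 0.05.

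Of the other motifs searched, EBF letters (CCCNNGGGA) were in 4.56% of HY-kept and 5.85% of WT-kept sites, a difference of -1.29 points (-2.54 to -0.18). They were in 5.69% of all D0 regions and 4.94% of regions closed in both. C/EBP letters were in 9.73% of HY-kept and 10.9% of WT-kept sites, a difference of -1.16 points with an interval from -2.81 to 0.36, beside 9.05% of all D0 regions and 26.8% of the sites newly opened in both genotypes, where the HY D8 summit was used for want of a D0 peak. CTCF letters were in 280 HY-kept sites (4.21%) and 5.15% of WT-kept sites, a difference of -0.94 points (-2.13 to 0.11). The letters searched for NFI, PPARG:RXR, the glucocorticoid receptor, CREB, ETS and SRF gave differences between -0.44 and 0.34 points, each with an interval that included 0. PPARG:RXR letters were at 3 HY-kept and 1 WT-kept sites, ETS letters at 22 and 9 and CREB letters at 25 and 12, too few for a comparison. Both CTCF shares exceeded the 2.93% of regions open in all 4 libraries and the 2.66% of regions closed in both. Within 100 bp of the summit the median GC content of HY-kept sites was 49.8%, against 52.2% in WT-kept sites, 57.2% in regions open in all 4 and 48.8% in regions closed in both.

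**Figure D4:**
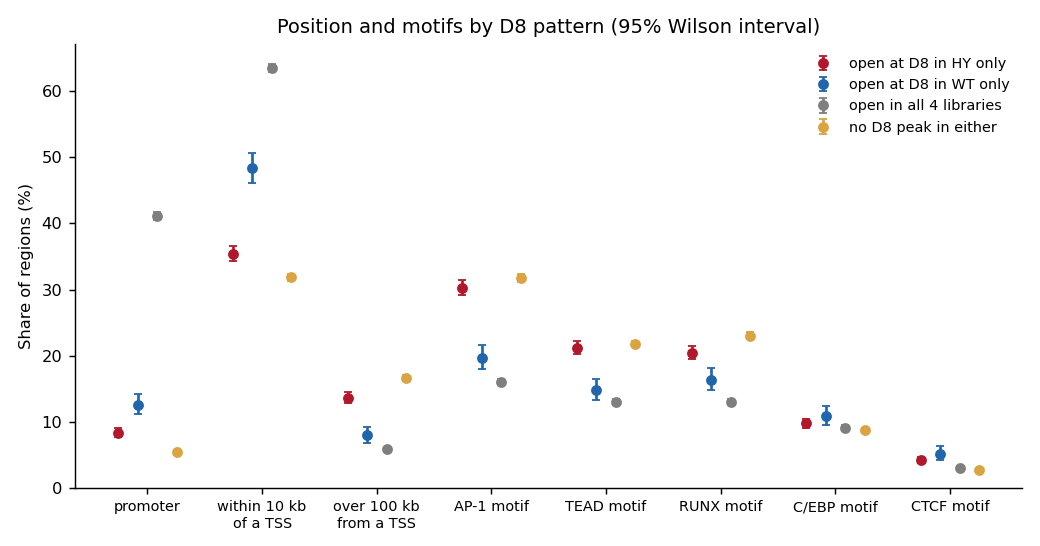
The share of regions (percent, with 95% Wilson intervals) at promoters, near to or far from a TSS, or with motif letters within 100 bp of the summit is plotted for 4 D8 patterns. HY-kept sites (red) have 30.3% with AP-1 letters, close to the 31.7% of regions with no D8 peak (yellow) and above the 19.7% of WT-kept sites (blue).

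HY-kept sites lay on all 19 chromosomes. They made up between 8.85% of the D0 regions on chromosome 12 and 14.3% on chromosome 10. The ratio of HY-kept to WT-kept sites was between 2.15 on chromosome 12 and 6.21 on chromosome 14. The median log2 HY over WT pileup at D0 was -0.10 on chromosome 12, 0.19 on chromosome 14 and 0.18 on chromosome 15, and between 0.05 and 0.11 on each of the others, chromosome 10 (0.07) among them. Chromosome 15 had a share of 11.2% and a ratio of 4.07, within the range of the others. At D8, regions open in all 4 libraries gave -0.07, 0.31 and 0.27 for these 3 chromosomes. Chromosome copy number was not measured and its part in these values was not tested. Without the 3 chromosomes the ratio was 3.55 against 3.57 with them, and the AP-1 share was 30.2%.

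Each site was given to the gene with the nearest TSS if this lay within 100 kb. Of 15198 genes with a D0 region, 4136 (27.2%) had at least 1 HY-kept site and 1532 (10.1%) at least 1 WT-kept site. Of the D0 regions near these genes, 11.5% were HY-kept. At least 3 HY-kept sites were found at 331 genes and at least 5 at 38. Genes with many D0 regions can hold more of them.

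The most HY-kept sites were near Vps8 and Dnm3, 8 at each. Vps8, a subunit of an endosomal tethering complex, had 8 of its 20 D0 regions HY-kept and 0 WT-kept, spread over 293 kb of chromosome 16. Their pileups were between 8 and 27 in WT D0 and between 8 and 39 in HY D0, and at HY D8 between 5 and 10. Dnm3, a dynamin gene, had 8 of 25 HY-kept and 3 WT-kept. Rhou, a small GTPase gene, had 7 of 30 and 4 WT-kept, with the highest levels of this group, between 7 and 23 in HY D8. At 5 of the 7 Rhou sites WT D8 would have needed between 9 and 13 tags, where the local background was high. Sept9, a septin gene, had 7 of 30, among them 2 promoters, and 0 WT-kept. Stard13, which encodes a GTPase-activating protein, had 7 of 20 and 0 WT-kept, and 5 of its 7 sites held AP-1 letters. Bre had 7 of 24 and 1 WT-kept, with at most 7 tags in HY D8.

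Rxra, the retinoid X receptor that pairs with PPARG, had 6 of 20 D0 regions HY-kept and 1 WT-kept. Its sites had between 14 and 48 tags in WT D0 and between 15 and 66 in HY D0, and no more than 15 in HY D8. The strongest at D0, 62.5 kb from the TSS and with AP-1 letters, had 48, 66 and 10. Tcf4, a basic helix-loop-helix factor, had 6 of 18, Tpra1 6 of 14 and 1700112E06Rik 6 of 12, each with 0 WT-kept. The first of the 1700112E06Rik sites, 1.16 kb from the TSS, was above its D0 levels, with pileups of 10, 8 and 16.

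Lists of genes were then examined for their share of HY-kept sites. Of 13 lists compared, that of progenitor genes had the highest share. Of 126 D0 regions near its 20 genes, 22 (17.5%, 11.8 to 25.02) were HY-kept and 0 were WT-kept, at 14 genes, beside 11.5% over all genes. Without Gata2 the share was 14.9% (9.62 to 22.3), an interval that includes the share over all genes. The interval also included it with Pdgfra, Zfp423, Cd55, Pi16 or Gli1 left out in turn, at shares between 16.3% and 17.1%. The list of neuron genes taken as a control had 14.6%. Gata2, a transcription factor that restrains adipocyte differentiation, had 4 of its 5 D0 regions HY-kept, all within 5 kb of a TSS. Their pileups in WT D0, HY D0 and HY D8 were 15, 14 and 10 at the promoter shown above and 31, 30 and 8 in the intron. They were 17, 18 and 9 in a second promoter region and 15, 23 and 6 upstream. The 2 promoter regions, chr6:88143517-88143772 and chr6:88143896-88144001, lie side by side and may be parts of the same promoter. After scaling, the promoter shown above was level between HY D0 and HY D8 (log2 ratio 0.03) and the other 3 sites were lower in HY D8. Gata3, its relative, had 1 of 5, with 29, 29 and 4 tags.

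Zfp423, a preadipocyte transcription factor, had 3 of 13 D0 regions HY-kept. The intronic site shown above, 12.5 kb from the TSS, had 18, 22 and 8 tags, a second one 9.13 kb away had 13, 19 and 5, and one 64.1 kb upstream had 8, 6 and 8. Besides Gata2 and Zfp423, no gene of the list had more than 2 HY-kept sites. Pdgfra had 2 of 5 sites, the stronger with 10, 11 and 7 tags. Cd55 had 2 of 3, among them its promoter with 8, 17 and 6, and Prrx1 2 of 11. Dlk1 (50, 46 and 10), Cd34 (19, 28 and 5), Dpp4 (12, 20 and 6) and Pi16 (12, 15 and 7) had 1 each, as did Pdgfrb (22, 27 and 11), Gli1 (24, 21 and 12), Sfrp2 (16, 13 and 8) and Twist1 (19, 29 and 9). The deep D0 peak upstream of Dlk1 was far lower in HY D8 as well, with a log2 ratio to HY D0 of -1.68.

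**Figure D5:**
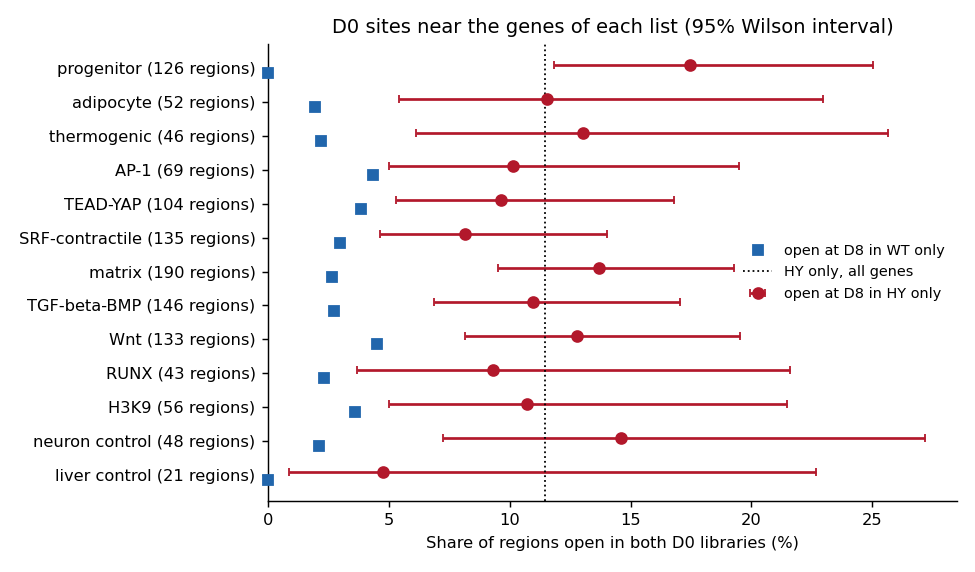
The share of D0 regions near the genes of 13 lists (percent) that were HY-kept (red, with 95% Wilson intervals) or WT-kept (blue) is plotted beside the HY-kept share over all genes (dotted, 11.5%). Progenitor genes have the highest HY-kept share, 17.5%, and its interval includes the share over all genes once Gata2 or any of 5 other genes is left out, as do the intervals of the other 12 lists.

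Matrix genes had 26 of 190 regions HY-kept (13.7%, 9.51 to 19.3) and 5 WT-kept. Loxl2, a lysyl oxidase that crosslinks collagen, had 6 of 9 HY-kept and 0 WT-kept. Its sites had 15 to 44 tags in WT D0 and 23 to 52 in HY D0, and at HY D8 between 9 and 13. Col6a3 had 3 of 15, among them its promoter with 38, 43 and 11 tags, and Col5a2 3 of 9. Timp3, a metalloproteinase inhibitor gene, had 3 of 15, with 26, 35 and 15 tags at its promoter. A site 54.0 kb upstream of Col1a1 was among the strongest at D0 and weak at D8, with 68, 72 and 9 tags. Mmp2, a collagenase gene, had 2 of 3 HY-kept.

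Wnt pathway genes had 17 of 133 regions HY-kept (12.8%) and 6 WT-kept. Dkk3, a member of the Dickkopf family, had 4 of 9 HY-kept and 0 WT-kept, with 14 to 19 tags in WT D0 and 21 to 27 in HY D0, and at HY D8 7 to 9. At these 4 sites HY D0 was above WT D0 in tag number each time. The transcription factor gene Tcf7l2 had 3 of 19, and the co-receptor Lrp6 and the secreted inhibitor Sfrp1 had 2 each. TGF-beta and BMP genes had 16 of 146 (11.0%) and 4 WT-kept, with 3 each at Smad3 and the inhibitor Smad7.

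Genes of TEAD and YAP signalling had 10 of 104 regions HY-kept (9.62%) and 4 WT-kept, and genes of SRF and the contractile apparatus 11 of 135 (8.15%) and 4 WT-kept. Mkl1, a coactivator of SRF, had 3 of 19. The site shown above had 37 tags in WT D0, 48 in HY D0 and 16 in HY D8, and the other two sites had 30, 41 and 10 and 25, 38 and 9. The site 10.5 kb upstream of Acta2, smooth muscle actin, had 42, 36 and 11. Cyr61, a YAP target, had 3 of 12, and Ctgf 1 of 5 with 26, 17 and 7. Sites of these lists thus did not exceed the share over all genes. The AP-1 genes themselves had 7 of 69 (10.1%) and 3 WT-kept, with 2 at Jun and 1 of 12 at Fos, and RUNX genes had 4 of 43, 3 of them at Runx3.

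Adipocyte genes had 6 of 52 regions HY-kept (11.5%) and thermogenic genes 6 of 46 (13.0%), with 1 WT-kept in each list. Pparg, the master regulator of adipocytes, had 2 of 8, the stronger with 13, 23 and 9 tags. The promoter of Klf15 (13, 10 and 16) and an intron of Plin1, which coats lipid droplets (15, 18 and 19), were at least as high in HY D8 as at D0 after scaling. At the beta3-adrenergic receptor gene Adrb3 all 3 D0 regions were HY-kept, with pileups of 11, 14 and 14, of 15, 14 and 12 and of 28, 15 and 8. At Fgf21 the only D0 region was HY-kept, with 7, 14 and 10. H3K9 methyltransferase, demethylase and reader genes had 6 of 56 (10.7%) and 2 WT-kept, with 2 of 3 at the demethylase gene Kdm1a. The control lists of neuron and liver genes had 7 of 48 (14.6%) and 1 of 21 (4.76%), so that lists this short vary widely.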

How the data were processed

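ATAC-seq was done on 4 libraries of im-scWAT cells, 1 per genotype and day, and GEO's labels gave the group of each. The authors' methods name Trimmomatic, Bowtie2, SAMtools, Picard, deepTools and MACS3 with mm9 and state the same procedure for ATAC-seq. Versions, the calling threshold and any Tn5 shift are not given in the sources used here. The deposited narrowPeak lists hold, per peak, a score, the fold enrichment at the summit (a ratio to local background), -log10 p, -log10 q and the summit offset. The deposited score was not used.

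The fold is (pileup + 1) / (background + 1) and -log10 p follows a Poisson law, so pileup and background were solved per peak, within 0.002 of the deposited -log10 p for 100% of peaks. Scaled pileup is pileup over the genome-wide rate, and absolute read depth is unknown. Lists were merged with BEDTools 2.31.1. Summits of the strongest HY D0 peak were annotated with GENCODE vM1 on NCBIM37 (mm9). Shares carry 95% Wilson and differences Newcombe intervals (statsmodels 0.14.6), which count regions as independent. The solver and merging were tested on simulated data.

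With 1 library per group no test between conditions was made. The members and lists were chosen with earlier results of these data known. Named were the 12 strongest sites by -log10 q in HY D8, the 6 strongest promoters, the 3 weakest, the 10 genes with most sites, list genes with a site, and markers. The 3 regions just outside, the comparison by the HY D8 to HY D0 ratio and the sites other than the strongest of a list gene were added after values were seen. Alternatives were lists of equal length, a -log10 q of 5, merging up to 500 bp, absence within 1000 bp, 50% overlap, a wider promoter, another motif window or summit, the deposited fold, and leaving out 3 chromosomes, the last chosen after seeing the data.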

Additional observations from a re-analysis of the deposited data

Results flagged for a closer look

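The rule left out chromosome X, and the same pattern was present there. Of 1220 regions of chromosome X open in both D0 libraries, 137 (11.2%, 9.58 to 13.1) had a peak in HY D8 and none in WT D8, and 39 (3.20%) the reverse. The ratio was 3.51, against 3.57 on chromosomes 1 to 19.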

How the results depend on the processing

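The number of HY-kept sites was 6651 and moved to 2844 with lists of equal length, 1978 with a -log10 q of at least 5 where a peak was required and 10146 with 50% of the D8 peak covered. WT-kept sites, 1864, moved to 595 and 3406 under the latter 2, and the ratio to 1.90 with lists of equal length. The median log2 ratio of HY D8 to HY D0, -0.80, was -0.99 with lists of equal length, -0.70 with the stricter -log10 q, -0.84 without WT D8 peaks within 1000 bp and -0.69 from the deposited fold. The promoter share was 7.38% with lists of equal length, 7.19% with peaks up to 500 bp apart merged, 7.24% without WT D8 peaks within 1000 bp and 13.9% with the window from 2000 bp upstream to 1000 bp downstream. The AP-1 share was 36.6% with lists of equal length, 33.2% with the stricter -log10 q, 20.3% within 50 bp and 28.6% around the HY D8 summit. The D0 difference between HY and WT stayed between 0.10 and 0.12 under all 6 alternatives run. The causes of these moves were not tested. No paired analysis was possible because there was 1 library per group. The lack of replicates and the unknown absolute depth limit every comparison.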
